A study of Mus musculus with 4 samples.

Results

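The E10.5-only distal regions are stretches of open chromatin that were listed in mouse forelimb buds at E10.5 and not at E9.5 (E, embryonic day), and that lay near a gene without touching its start. They were selected on the region lists themselves. A region of the E10.5 list became a member when it shared no base with any E9.5 region, lay on an autosome, and had its centre over 2.5 kb and under 100 kb from the nearest transcription start of a protein-coding gene (GENCODE vM1 on mm9). Of 46765 regions in the E10.5 list, 45648 were on autosomes, and 15961 of those (35.0%) had no E9.5 overlap. Of these, 15186 lay over 2.5 kb from a start and 9321 also lay under 100 kb. The 9321 members made up 19.9% of the E10.5 list (95% Wilson interval 19.6 to 20.3%) and 42.8% of all 21756 autosomal E10.5 regions at that distance from a gene.

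The regions came from ATAC-seq, in which the Tn5 transposase cuts accessible DNA and the cut fragments are sequenced. Both stages used wild-type NMRI embryos, with 2 replicates per stage, each a pair of forelimb buds from 1 embryo. The E9.5 samples, which the protocol places at E9.75, still had the adjoining piece of trunk attached, whereas the E10.5 samples are described by source and protocol as forelimb buds, although their tissue entry names both forelimb and hindlimb buds. Each stage is represented by 1 list that combines its replicates, so stage, trunk tissue and differences in sequencing depth cannot be told apart, and no value below carries a replicate error. The intervals cover counting error only and treat regions as independent.

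Distal open regions include enhancers, which bind transcription factors and act on promoters that can lie far away. In the limb bud, enhancers within introns and in the intergenic DNA around developmental genes set where signals such as FGFs, BMPs, Wnts and Hedgehog are produced and read. Open chromatin alone does not show that a region is an enhancer, nor which gene it acts on, and the gene named for each region here is the one with the nearest start.

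A set of 5 members shows what these regions look like. Frzb, Odz2 and Bmpr1b had the 3 highest-scoring members, and Odz4 and Pde4d were the genes with the most members, here represented by their highest-scoring one. The centre of each, with 120 bases to either side, is given on the plus strand of mm9. Capitals mark matches, on either strand, to 5 sets of letters. E-box A (CAGCTG) and the related E-box B (CATCTG) and E-box C (CATATG) are bound by basic helix-loop-helix factors. The homeodomain letters (TAATTA) are bound by many homeobox factors, and the posterior HOX letters (CAATAAA) are preferred by HOX proteins of the distal limb.

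Frzb, chr2:80236873-80237113: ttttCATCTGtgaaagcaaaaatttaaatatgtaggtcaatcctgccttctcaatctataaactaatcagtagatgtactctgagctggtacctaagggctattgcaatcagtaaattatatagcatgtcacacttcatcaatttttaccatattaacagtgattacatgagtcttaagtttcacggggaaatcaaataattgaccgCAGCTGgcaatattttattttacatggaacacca
Odz2, chr11:36844928-36845168: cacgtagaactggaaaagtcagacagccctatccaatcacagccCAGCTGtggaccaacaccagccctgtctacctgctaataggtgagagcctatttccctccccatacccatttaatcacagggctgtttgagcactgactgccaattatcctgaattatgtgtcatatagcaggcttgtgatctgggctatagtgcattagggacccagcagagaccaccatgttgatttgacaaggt
Bmpr1b, chr3:141901347-141901587: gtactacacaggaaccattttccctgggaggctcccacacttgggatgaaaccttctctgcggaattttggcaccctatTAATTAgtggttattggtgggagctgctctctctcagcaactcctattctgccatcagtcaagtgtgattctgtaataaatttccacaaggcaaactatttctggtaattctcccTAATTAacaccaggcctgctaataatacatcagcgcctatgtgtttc
Odz4, chr7:103758459-103758699: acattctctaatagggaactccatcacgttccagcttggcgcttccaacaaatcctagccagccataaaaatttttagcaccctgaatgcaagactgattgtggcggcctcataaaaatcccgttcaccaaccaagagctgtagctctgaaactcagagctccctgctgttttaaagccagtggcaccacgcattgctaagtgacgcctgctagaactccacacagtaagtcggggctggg
Pde4d, chr13:109858516-109858756: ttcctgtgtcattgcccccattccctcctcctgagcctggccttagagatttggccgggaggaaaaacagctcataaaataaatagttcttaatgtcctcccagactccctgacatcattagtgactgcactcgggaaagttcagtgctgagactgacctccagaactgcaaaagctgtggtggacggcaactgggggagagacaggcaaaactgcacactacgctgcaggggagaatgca

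The Frzb window held 1 E-box B and 1 E-box A match, the Odz2 window 1 E-box A match and the Bmpr1b window 2 homeodomain matches. None of these letters occurred in the Odz4 and Pde4d windows. A match is a description of the letters and not evidence that a factor was bound.

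The question asked first was which genes had several such regions. Of 21418 autosomal protein-coding genes, 4814 (22.5%) were nearest to at least 1 member and 1015 (4.74%) to at least 3. The 1015 genes accounted for 47.2% of all members. At least 5 members were found for 306 genes, at least 10 for 32 genes, and 2672 genes had a single one. Genes with several members were large and had much DNA to themselves. The median length was 111 kb for genes with at least 3 members and 15.5 kb for all genes. Their median territory, defined as the DNA nearest to a gene's starts and 2.5 to 100 kb away, was 195 kb against 36.8 kb. Across the 21418 genes, the number of members had a Spearman correlation of 0.53 with territory, 0.35 with the number of E10.5 regions shared with E9.5 and 0.26 with the number of regions found only at E9.5, given as a description across genes, which are not independent replicates. Among the 306 genes with at least 5 members, 293 had more members than E9.5-only regions and 267 more than shared regions. This comparison is partly fixed by choosing genes for many members.

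The 20 genes with the most members had 11 to 20 each, and together held 258 members and 68 E9.5-only regions. All 20 were over 100 kb long and had an open region within 2.5 kb of a start at both stages, and 221 of the 258 members (85.7%) were intronic. Odz4, which encodes a teneurin transmembrane protein, had 20 members with scores of 83.29 to 816.83 (median 233). The score is 10 times the negative log10 of the MACS p-value, so it rises both with enrichment and with sequencing depth. Of the Odz4 members, 18 were intronic, and 12 shared and 9 E9.5-only regions lay in the same territory. Pde4d, a cyclic AMP phosphodiesterase gene, also had 20 members, all intronic, with scores of 85.00 to 824.56 (median 180) beside 8 shared and 6 E9.5-only regions. The synaptic scaffold gene Dlg2 followed with 15, whose scores ran from 68.32 to 878.48 with a median of 136. Spread over their territories, these were 3.03, 1.79 and 1.20 members per 100 kb for Odz4, Pde4d and Dlg2, against 0.678 over all genes. As these genes were chosen for many members, a density above that of all genes is partly fixed by the choice.

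**Figure D1:**
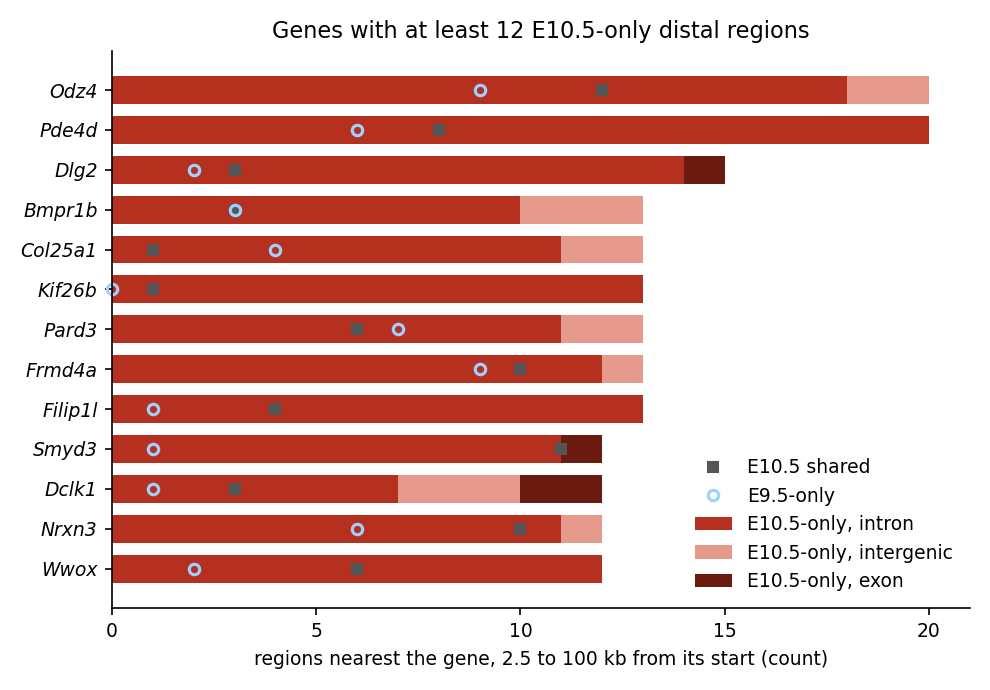
E10.5-only distal regions nearest each of the 13 genes with at least 12, drawn as bars divided by position (count of regions, horizontal axis). Squares give E10.5 regions shared with E9.5 and circles E9.5-only regions in the same territory, and in each of the 13 genes the bar, 12 to 20 regions long, extends past both.

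There were 6 genes with 13 members each. Bmpr1b encodes a type I BMP receptor required for digit cartilage. Its scores, in order along chromosome 3, were 150.49, 475.54, 531.37, 140.74, 175.2, 338.4, 605.38, 881.41, 175.08, 866.74, 139.49, 296.86 and 1956.77. The first 10 were intronic, and the last 3 lay upstream of the gene, the strongest at chr3:141900543-141902390, 69.1 kb from the nearest start. Around Bmpr1b there were 3 shared and 3 E9.5-only regions. Kif26b, a kinesin-family gene, had 13 intronic members with scores of 87.56 to 548.32, beside 1 shared region and none found only at E9.5. Next to it on chromosome 1, the methyltransferase gene Smyd3, had 12 members beside 11 shared regions and 1 E9.5-only region. Col25a1, which encodes a transmembrane collagen, had 13 members beside 1 shared and 4 E9.5-only regions, its strongest (1031.75) 19.4 kb from a start. The polarity gene Pard3 had 6 shared and 7 E9.5-only regions beside its 13 members, and Frmd4a had 10 and 9. Filip1l, a filamin-binding protein gene, had 13 members in 245 kb, or 5.31 per 100 kb, the densest of the 20, all of them intronic.

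The other 11 genes had 11 or 12 members. Dclk1, a microtubule-associated kinase gene, had 12, of which 7 were intronic, 3 intergenic and 2 exonic. Wwox had 12 intronic members, and the neurexin gene Nrxn3 had 12 beside 10 shared regions. Lphn3, an adhesion receptor gene, had 11 members, and its weakest scored 148.16, above the median of all members. The strongest Lphn3 member scored 1532.96. Fam190a and Gbe1, the glycogen branching enzyme gene, had 11 members each and no E9.5-only region. Adamts18, a secreted metalloprotease gene, had 11 members at 4.82 per 100 kb beside 3 shared regions and 1 E9.5-only region. Pdzrn3 and 2010111I01Rik had 11 each. Pdzrn3, a ubiquitin ligase gene, also had 9 E9.5-only and 6 shared regions, so open chromatin in its territory was listed in all 3 classes.

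Gene groups with roles in the limb bud were then counted against the 22.5% of all genes with at least 1 member and the 4.74% with at least 3. No test was applied, since the lists were written with earlier results of these data known and their genes mostly have large territories. Among 40 limb bud transcription factor genes, 29 had at least 1 member (72.5%, 95% Wilson interval 57.2 to 83.9%) and 10 had at least 3. The median territory of this list was 130 kb. Members were found at 1.32 per 100 kb of it, against 0.678 per 100 kb over all genes, but the list was also dense in shared regions (2.41 against 0.905 per 100 kb) and in E9.5-only regions (1.27 against 0.593). E10.5-only distal regions were 35.5% of the E10.5 regions near these genes, below the 42.8% found over all genes.

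Gli3, the main transcriptional repressor of the Hedgehog pathway in the limb bud, had 7 members with scores of 69.8, 113.19, 255.1, 126.43, 113.12, 382.84 and 501.74 along the gene. Only the last 2 exceeded 300, and both were intronic, 87.7 and 96.4 kb from a start. Gli2, its paralogue, had 6 members with scores of at most 290.88 beside 11 shared and 7 E9.5-only regions. Hand2, which acts in posterior limb mesenchyme, had 5 members, all intergenic, at scores of 110.94, 282.24, 379.39, 99.14 and 216.9. Tbx15, a T-box gene needed for skeletal growth, had 5 intronic members, 4 of which scored 111.35 to 385 while the fifth, at chr3:99115210-99116708, reached 1095.88. Prrx1, a mesenchymal homeobox gene, had 5 members, 4 intergenic, the highest at 436.21. Tbx15 and Prrx1 had no E9.5-only region.

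In the FGF pathway list, 15 of 23 genes had at least 1 member and 7 had at least 3. The median territory was 126 kb. Per 100 kb, members lay there at 1.51, shared regions at 1.34 and E9.5-only regions at 0.807. The E10.5-only share was 52.9%, against 42.8% over all genes. Fgf10, the mesenchymal ligand that maintains limb bud outgrowth, had 9, the most of this list. Its scores from upstream to downstream were 104.95, 104.92, 118.24, 113.6, 178.75, 784.48, 595.14, 119.76 and 102.42. The pair of high values belonged to an intronic region 31.9 kb and an intergenic region 77.5 kb downstream of the start, and the other 7 stayed under 180. Fgf10 had 3 shared regions and 1 E9.5-only region in addition. Etv1, an ETS factor gene induced by FGF signalling, had 6 intronic members, 5 of them between 110.7 and 152.57 and the sixth at 433.97. The feedback inhibitor gene Spry4 had 4, at 105.61, 271.18, 1037.75 and 108.76, and Flrt3 had 4 with a median of 246, all within introns of Macrod2, the long gene that surrounds it.

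In the BMP and TGF-beta list, 22 of 41 genes had at least 1 member and 10 at least 3. The median territory was 123 kb. Per 100 kb, members lay there at 1.22, shared regions at 1.49 and E9.5-only regions at 0.936. All 3 were above the values over all genes (0.678, 0.905 and 0.593). The E10.5-only share was 45.1%, near the 42.8% over all genes. Bmpr1b led it. The co-receptor gene Tgfbr3 had 7, with scores between 81.42 and 742.87. Bmp5 had 5, at 66.74 to 394.64. Bmp2 had 4, all intergenic, at 265.33, 909.45, 235.32 and 201.42, the highest 14.7 kb downstream of the nearest start. In the Hedgehog list, 7 of 14 genes had at least 1 and 4 at least 3, namely Gli3, Gli2, Hhip and Cdon. Per 100 kb of territory, this list had 2.07 members, 3.18 shared and 1.73 E9.5-only regions. Its E10.5-only share was 39.5%, below that over all genes. Hhip, which encodes a membrane-bound inhibitor of the ligand, had 6 at 129.3 to 554.67, and the co-receptor gene Cdon had 6 at 107.02 to 589.09, of which 5 were upstream of the gene. In the Wnt list, 28 of 43 genes had at least 1 and 10 at least 3. Members lay at 1.31 per 100 kb near the Wnt genes and E9.5-only regions at 1.36. Rspo2, a secreted agonist, had 6 members, at 195.05, 357.34, 117.08, 187.01, 160.68 and 527.15, and its territory held no shared and no E9.5-only region. Tcf7l2 and the secreted antagonist gene Sfrp1 had 5 each, and Sfrp2 had 4. Tcf7l2 also had 8 E9.5-only regions. Of the other Wnt antagonists, Frzb, which is expressed in skeletal precursors, had 2 members, the highest-scoring of all at chr2:80235861-80238125 (2183.25) and an intronic one at 128.09.

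Cartilage and matrix genes were among the lists with the most genes reached. Of 27 cartilage and skeletal genes, 21 had at least 1 member and 6 at least 3. The median territory of this list was 174 kb. E10.5-only distal regions were 40.2% of the E10.5 regions near these genes, below the 42.8% over all genes. Members and E9.5-only regions were equally dense there, each at 1.05 per 100 kb. Sox5 and Sox6, partners of SOX9 in chondrocytes, had 7 and 6, at 130.55 to 369.18 and 126.14 to 562.41. The collagen gene Col9a1 had 5 with a median of 289, and Pthlh, a regulator of growth plate chondrocytes, had 4 intergenic ones at 322.93, 165.76, 380.12 and 174.04. Of 24 extracellular matrix genes, 18 had at least 1 and 8 at least 3. The E10.5-only share near the matrix genes was 50.6%. Members lay there at 1.19 per 100 kb, beside 0.989 for E9.5-only regions. Vcan, which encodes the proteoglycan versican, had 8, at 187.21, 126.34, 138.14, 655.03, 557.63, 200.96, 355.16 and 777.91, and Lama4 had 4.

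The list with the largest shares was that of axon guidance and adhesion genes, whose products steer growing axons and hold cells together. Of 45 genes on it, 37 (82.2%) had at least 1 member and 24 (53.3%) at least 3. Members outnumbered shared regions near them, 179 to 110, so that the E10.5-only share was 61.9%, and this was the list with the highest such share. The genes on it have long introns, and their median territory was 195 kb. Members lay at 1.4 per 100 kb near these genes, below the Hedgehog (2.07) and FGF (1.51) lists and beside 1.32 for the limb bud transcription factors. The 112 E9.5-only regions near them, at 0.877 per 100 kb, were also denser than the 0.593 over all genes. The list was assembled with the ranking of Odz4 already known. Beside Odz4 and Lphn3, the netrin receptor gene Unc5c had 10 members at 119.32 to 852.66, with 7 shared regions and 1 E9.5-only region.

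Lists for other tissues, and those of the retinoic acid and Notch pathways, were nearer to the background of 22.5%. Per 100 kb of territory, members were no denser than the 0.678 over all genes near muscle precursor (0.632), neural (0.510) and retinoic acid (0.661) genes. E9.5-only regions there lay at 1.65, 1.26 and 1.32 per 100 kb against 0.593. Members were denser near endothelial and blood (0.942), ectoderm (0.874) and somite and trunk mesoderm (0.872) genes. Near Notch genes they lay at 0.686, close to the value over all genes and resting on 8 members. In the same order, E9.5-only regions near these lists lay at 1.14, 1.17, 1.74 and 2.49 per 100 kb. Of 21 muscle precursor genes 9 had at least 1 member (42.9%), led by Mef2c and Dach1 with 4 each. For endothelial and blood genes it was 11 of 27 (40.7%), led by Erg with 7 and Lmo2 with 4, whose strongest members scored 892.43 and 1004.54. Erg had no shared region. It was 12 of 25 for somite and trunk mesoderm genes, where Meox2, Pax1 and Wt1 had 3 each, and 1 Pax1 member scored 1367.08. It was 8 of 25 for ectoderm and apical ridge genes (Trp63 had 4), 7 of 24 for neural and neural crest genes (Pou4f1 had 4), 7 of 16 for the retinoic acid pathway (Rarb had 4) and 5 of 16 for the Notch pathway (Jag1 had 3). The intervals of the ectoderm, neural and Notch shares included 22.5%. Of 24 housekeeping genes, 1 had a single member (4.17%, 0.739 to 20.2%). Among the 15 5' Hox genes, 2 had any, Hoxd11 with 2 exonic regions at 269.62 and 188.62 and Hoxa13 with 1 at 129.76. The median territory of a 5' Hox gene was 2.53 kb, so little DNA there could hold a member. Per 100 kb of territory, members were not scarce there, at 4.28 against 0.678 over all genes. Shared regions lay at 4.28 and E9.5-only regions at 5.71 per 100 kb. These densities rest on 3 members, 3 shared and 4 E9.5-only regions.

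**Figure D2:**
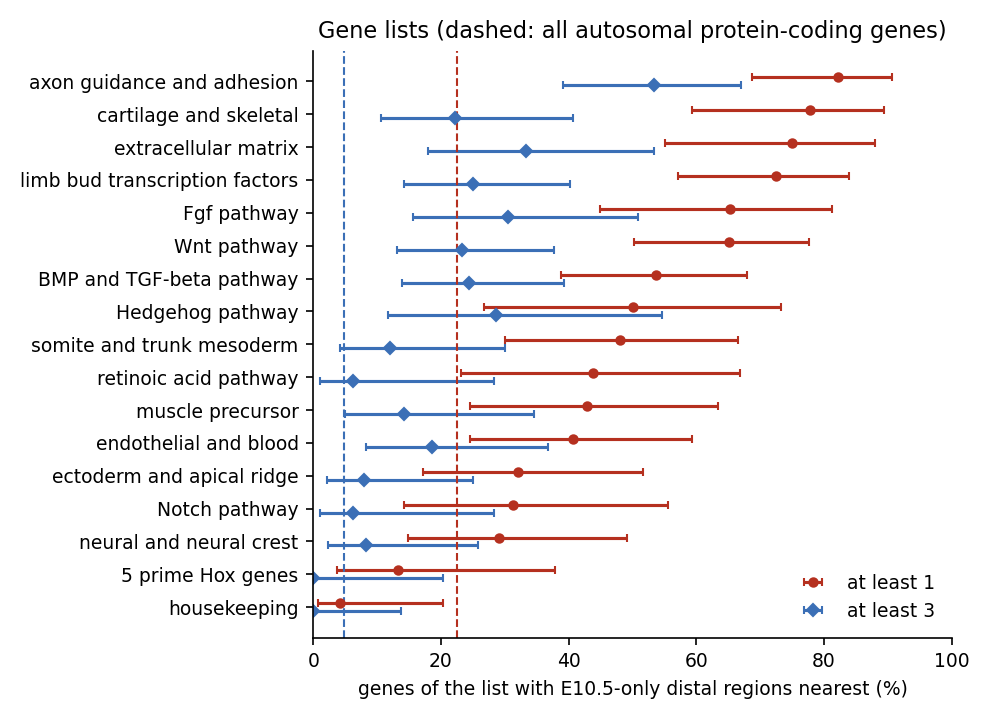
Share of the genes in each list (percent, horizontal axis) that were nearest to at least 1 (circles) or at least 3 (diamonds) E10.5-only distal regions, with 95% Wilson intervals. Dashed lines mark all autosomal protein-coding genes at 22.5% and 4.74%, and axon guidance and adhesion genes stand highest at 82.2% and 53.3%.

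Within genes and between them, the E10.5-only distal regions were split almost evenly. By the position of the centre, 4666 were in introns of protein-coding genes (50.1%, 95% Wilson interval 49.0 to 51.1%), 4419 were intergenic (47.4%) and 236 were in exons (2.53%). Of the exonic ones, 96 were in coding sequence. The genomic DNA at the same distances from gene starts was 46.3% intron, 50.4% intergenic and 3.28% exon, and the intronic share of members exceeded the intronic share of that DNA on 17 of 19 autosomes. Among the 12435 E10.5 regions that overlapped an E9.5 region at these distances, 39.1% were intronic. The difference per autosome was 11.3 ± 4.28 percentage points (mean ± SD over 19 autosomes) and was positive on all 19. It held at each distance, from 61.7% against 45.5% at 2.5 to 5 kb to 43.1% against 34.6% at 50 to 100 kb. The 8148 regions found only at E9.5 were 47.9% intronic (46.8 to 49.0%), and the difference of 2.36 ± 5.35 points from these was smaller than its spread over autosomes.

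**Figure D3:**
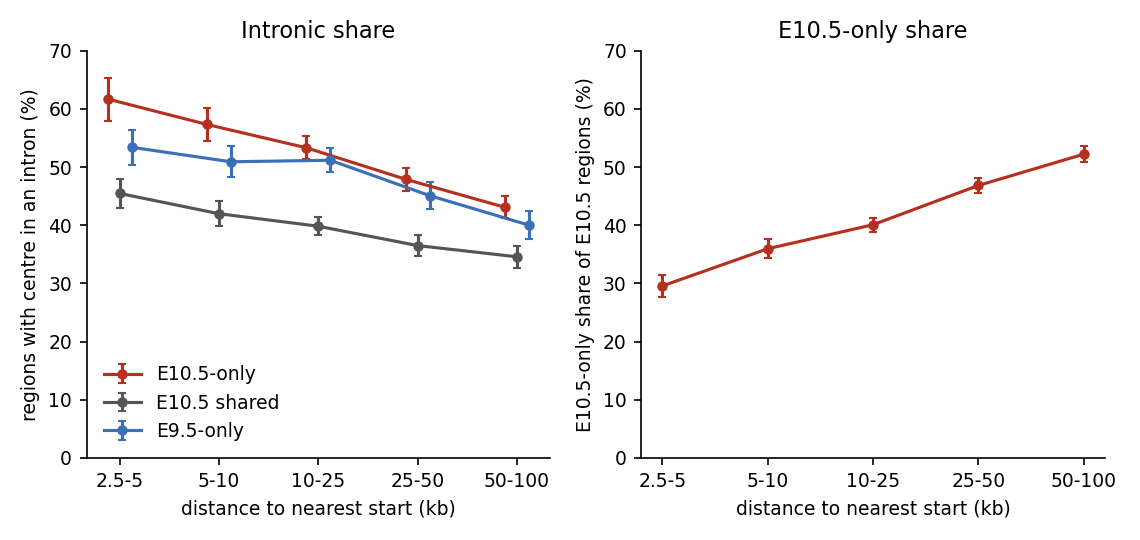
Left, share of regions with the centre in an intron (percent) by distance to the nearest start (kb) for E10.5-only, shared and E9.5-only regions, with E10.5-only points from 61.7% down to 43.1% and above the shared points throughout. Right, E10.5-only regions as a share of all E10.5 regions (percent) at the same distances, from 29.6% to 52.2%, with bars on both sides giving 95% Wilson intervals.

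Intronic members lay in 2372 host genes, and for 4047 of them (86.7%) the host was also the gene with the nearest start. The hosts were long. The median host was 181 kb for members, 121 kb for shared and 125 kb for E9.5-only intronic regions, and hosts over 200 kb took 45.9%, 33.1% and 31.6%. Of 4603 members in an intron of their host's longest transcript, 1237 (26.9%, 25.6 to 28.2%) were in its first intron, as were 29.2% of the shared and 33.2% of the E9.5-only regions counted in the same way. Counted by host, Pde4d held 20, Odz4 19, 2610528E23Rik 15, and Dlg2 and Kif26b 14 each. Of the intergenic members, 189 (4.28%) were inside a gene of another kind, such as a long non-coding RNA gene.

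Members lay farther from genes than the shared regions, and their share of all E10.5 regions rose with distance. The median distance to the nearest start was 28.6 kb for members and 19.4 kb for shared regions. Members were 29.6% of E10.5 regions at 2.5 to 5 kb, 36.0% at 5 to 10 kb, 40.1% at 10 to 25 kb, 46.8% at 25 to 50 kb and 52.2% at 50 to 100 kb. They lay upstream of the nearest start in 45.4% of cases, and shared regions in 46.7%. The nearest gene was mostly one with an open promoter at both stages. For 7264 members (77.9%, 77.1 to 78.8%) it had an open region within 2.5 kb of a start at both stages, beside 77.9% of shared regions (77.1 to 78.6%) and 62.0% of all genes. A nearest gene with an open promoter at E10.5 only was seen for 141 members (1.51%), beside 1.13% of shared regions and 1.08% of all genes. For 1698 members (18.2%) the nearest gene had no open promoter region at either stage, beside 16.9% of shared regions and 33.1% of all genes. By chromosome, members were 32.3 to 52.5% of the E10.5 distal regions, lowest on chromosome 11 and highest on chromosome 3.

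Scores of members were low compared with those of shared regions, and since the rule selects on presence in the other list, this is given as a description. The median score was 146.18 (95% order-statistic interval 144.16 to 148.43), with 10% of members under 90.64 and 10% above 394.64. The median of shared regions was 217.27 and that of E9.5-only regions 141.92. Of members, 7942 scored at least 100, 1528 at least 300, 582 at least 500 and 74 at least 1000. E10.5-only regions were 40.8% of the E10.5 distal regions scoring at least 100, 30.4% at 200, 25.6% at 300 and 7.79% at 1000. The 10 highest-scoring members were those of Frzb (2183.25), Odz2 (2157.95), Bmpr1b (1956.77), Fam190a (1927.5), Sel1l2 (1777.88), Gm10663 (1765.52), B530045E10Rik (1720.02), Hs3st5 (1600.78), Atg10 (1597.53) and Pdzd2 (1590.69). The Frzb region stood above 96.8% of the E10.5 list and Pdzd2 above 93.4%, and no member ranked above the Frzb region. The Odz2 region, in an intron of this teneurin gene at chr11:36844137-36845958, was 153 kb from the nearest E9.5 region, and the other 8 members of Odz2 scored 65.55 to 272. The Frzb region lay 487 bases from an E9.5 region.

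**Figure D4:**
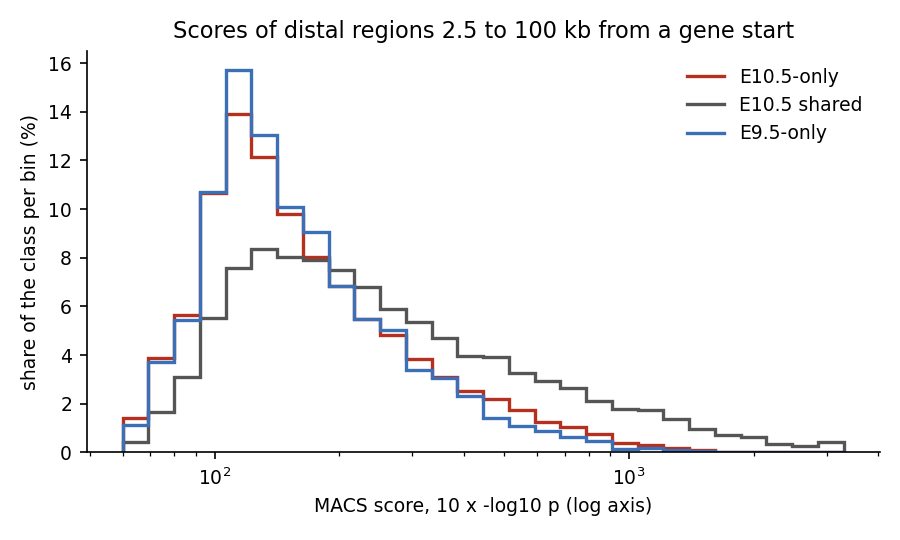
Distribution of MACS scores (log axis) for E10.5-only, shared and E9.5-only distal regions, as the share of each class per bin (percent). E10.5-only and E9.5-only regions peak together near the low end, with medians of 146.18 and 141.92, and shared regions, with a median of 217.27, extend further to the right.

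Among the members, score varied with position, distance, base composition and neighbours. Intronic members had a median of 150.21 (147.26 to 153.6) and intergenic ones 142.98 (140.52 to 145.4). The median rose with distance from 133.94 at 2.5 to 5 kb to 155.31 at 50 to 100 kb. It was 164.28 in windows under 38% GC and 129.6 in those of 54% or more. Members that were the only one of their gene had a median of 134.19, and those of genes with at least 5 members 167.26 (163.43 to 175.07). Members were narrower than shared regions, with a median width of 852 bp against 942 bp, and E9.5-only regions had 905 bp. A wider region is more likely to share a base with the other list. The rule itself thus favours this difference, and it is given as a description.

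Most members had no other member close by, and most shared regions had no other shared region close by. With centres of a class linked at up to 12500 bp, 6870 members (73.7%) stood alone. Regions of other classes next to a member were not counted. In all, 189 members (2.03%) fell into 42 clusters of at least 4, while 6.55% of shared regions fell into such clusters. Clusters of at least 2 took 26.3% of members and 35.7% of shared regions, which were more numerous (12435 against 9321). The median score was 143.28 for solitary members and 188.48 (162.81 to 213.19) for those in clusters of at least 4. The largest clusters, of 7 members each, were in the introns of Pdzrn3 (54.1 kb, scores 108.43 to 617.18) and around the end of Dclk1 (35.9 kb, 101.47 to 399.39). The Pdzrn3 span also held 4 shared E10.5 regions and 5 E9.5 regions, and the Dclk1 span 1 and 2. An Odz4 cluster had 6 intronic members in 46.6 kb, with 1 shared region and 3 E9.5 regions inside. Another 6 were packed into 15.8 kb near Zfp518b and Wdr1, an actin disassembly factor gene, with scores of 110.92 to 535.8 and with no E9.5 or shared region among them. The remaining 11 clusters of at least 5 had 5 members each, and the longest of them, mostly in introns at E130114P18Rik, spanned 32.5 kb with 1 E9.5 region inside. In 32 of the 42 clusters no E9.5 region lay inside the span. The median gap from a member to the nearest E9.5 region was 16.4 kb (15.8 to 17.0 kb), 498 members lay within 1 kb of one and 410 lay at least 100 kb away.

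Base composition set the members apart from the other distal regions near genes. In windows reaching 150 bases to either side of the centre, median GC content was 45.2% (44.9 to 45.2%), against 51.2% for shared and 51.8% for E9.5-only regions. The difference from shared regions was -6.12 ± 0.676 percentage points per autosome (mean ± SD) and had the same sign on all 19, as did the difference of -6.55 ± 1.07 points from E9.5-only regions. The E10.5-only regions over 100 kb from any gene had a median of 42.9%, as did windows placed every 10 kb over the same gene-near DNA (42.9%). Windows with no CpG made up 6.52% of members (6.04 to 7.04%), 2.44% of shared and 3.66% of E9.5-only regions. GC content can change how efficiently a fragment is amplified and cut, and its part in which regions were listed at E10.5 was not tested.

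Because motif letters depend on base composition, matches to 23 short motifs were counted in the same windows, and the shares of other regions were reweighted to the GC distribution of the members over 6 bins. Matches on both strands were counted once per window. Of the 23 motifs, 5 were above the reweighted shared regions by intervals that did not overlap, 3 were below and 15 overlapped. The 5 were those capitalised in the sequences above. E-box B, of the kind bound by mesenchymal factors such as TWIST and HAND, was in 33.7% of members (32.7 to 34.7%), against 29.4% of shared regions after reweighting and 25.4% of all E10.5 regions. The homeodomain letters were in 14.5% (13.8 to 15.2%), against 11.3% after reweighting and 8.80% of all E10.5 regions. They ran above the shared regions in each of the 6 GC bins, for example 14.7% against 11.2% at 42 to 46% GC. At 38 to 42% GC the intervals overlapped, with 18.4% (16.7 to 20.3%) against 17.3% (14.7 to 20.2%). The shares were 25.6% against 20.1% under 38% GC, where the intervals also overlapped, and 6.67% against 3.68% at 54% or more. These outer bins are open-ended, so GC content can still differ within them. The top bin held 6.12% of members and 33.9% of shared regions. The reweighted shares carry the same limit. The posterior HOX letters were in 9.31% against 6.77%, with 5.57% of all E10.5 regions. E-box C was in 8.78% against 6.40%, with 5.29% of all E10.5 regions. E-box A was in 22.7% against 19.5% after reweighting, but before reweighting shared regions held it more often (24.8%), so its direction depends on the correction for GC content. Without reweighting the other 4 were higher in members on all 19 autosomes. The homeodomain letters, E-box A and E-box C are their own reverse complements, and none of the 5 sets of letters can be read as another. None of the 5 was higher in members than in the E10.5-only regions over 100 kb from a gene by intervals that did not overlap. After reweighting, those regions held E-box B in 35.7%, E-box A in 24.2%, E-box C in 9.03% and the posterior HOX letters in 9.22%, with intervals that overlapped those of members, and held the homeodomain letters more often (17.0%).

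The 3 motifs below the reweighted shared regions were AGATAA, bound by GATA factors (12.7% against 16.0%, with 9.71% of all E10.5 regions), GGCGCC, bound by SMADs (2.47% against 3.96%, with 11.2% of all), and CCACNAGG, the core of the site of the boundary factor CTCF (7.41% against 11.1%, with 8.38% of all). AGATAA was higher in members before reweighting, where shared regions stood at 10.8%. Before reweighting, the CTCF core was lower in members on 19 of 19 autosomes, by 5.32 ± 2.31 points. Against the reweighted E9.5-only regions, GATA (22.0%), the SOX letters AACAAT (16.3% against 21.5%) and the nuclear receptor letters AGGTCA (19.8% against 29.7%) were lower in members, and E-boxes A, B and C, the homeodomain letters, the CTCF core and the RUNX letters TGTGGT were higher. The posterior HOX letters overlapped (9.31% against 8.70%). The direction depended on reweighting for E-box A, the CTCF core and the SOX letters, since the E9.5-only shares before it were 28.8%, 8.58% and 13.8%. Of all E10.5 regions, the SOX letters were in 11.5%, the nuclear receptor letters in 17.3% and the RUNX letters in 17.9%. In this comparison the attached trunk at E9.5 cannot be told apart from stage. Against reweighted windows of genomic DNA, 16 motifs were higher in members, 1 (AGATAA) was lower and 6 overlapped, E-box C among them (8.78% against 8.47%).

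**Figure D5:**
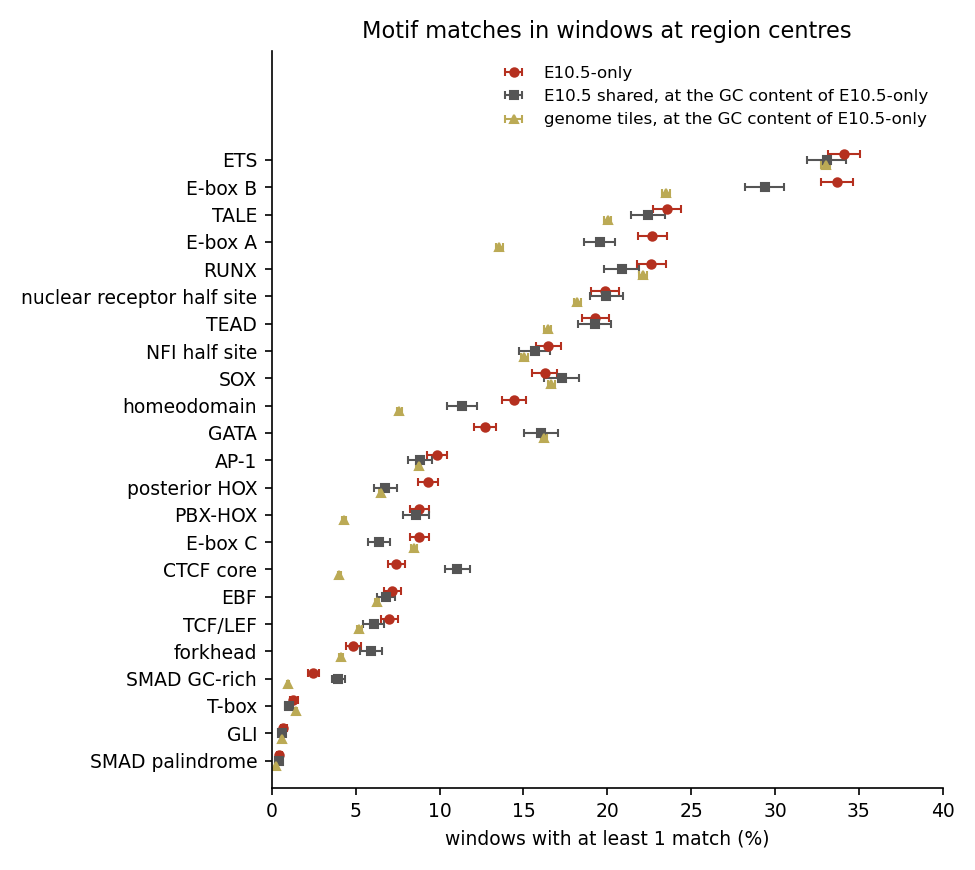
Share of windows with at least 1 match (percent) for 23 motifs in E10.5-only distal regions, in shared regions and in genomic windows, the latter classes reweighted to the GC content of E10.5-only regions, with 95% intervals. E-box B stands at 33.7% against 29.4% in shared regions and the CTCF core at 7.41% against 11.1%.

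The limits that define membership cut through a continuum. Just inside the 2.5 kb limit were regions near Grsf1, Pde3a and Numbl at 2.51 kb with scores of 233.48, 187.56 and 62.35, and just outside it regions near Socs2, Gm9989 and Irs3 at 2.49 kb with 120.05, 107.02 and 152.08. Just inside 100 kb were regions near Dync1i1, Gna14 and Odz2 (97.97, 100.41 and 126.19), and just outside it regions near Ptprn2, Fzd1 and Fut10 (284.57, 479.34 and 445.09). At the overlap limit, members near Zfp438 and Pbp2 abutted an E9.5 region without sharing a base and 1 near Nfatc1 was 2 bases away, while regions near Dach1, Lrig3 and Igf2 shared 2, 13 and 14 bases and were not members. In all, 20 members lay under 50 bases from an E9.5 region.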

How the data were processed

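ATAC-seq was performed on mouse forelimb buds at E9.5 and E10.5 with 2 replicates per stage. According to the study's methods and the processing notes, the authors aligned reads to mm9 with Bowtie 1.1.0, called peaks per replicate with MACS 1.4 without a control, and combined the replicates with MSPC (stringent 1e-10, weak 1e-06), keeping the best p-value. The deposited score of each region is therefore 10 times the negative log10 of a MACS p-value. Read depth is unknown because the deposited lists hold no counts, and only the combined lists were used here.

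The members, gene lists and motifs were chosen with earlier results of these data known. Genes and sequence came from GENCODE vM1 and NCBIM37, whose chromosome lengths match mm9. A centre in an exon of any protein-coding transcript was exonic, otherwise in a gene body intronic, otherwise intergenic. Named were the 20 genes with the most members (1 of them is not reported here), up to 4 genes per list, the 10 highest-scoring members, the 5 largest clusters and 3 regions on each side of each limit. Pde4d is also the symbol of a second gene model, which had 2 more members. Shares carry Wilson intervals and medians order-statistic intervals. No test was run, since each stage has 1 list. Calculations used Python 3.11.15, numpy 2.4.6 and pandas 2.3.3, and the interval, nearest-start and motif searches were tested on simulated data. Alternatives covered the overlap, distance, start, window and linking settings and each autosome left out in turn.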

Additional observations from a re-analysis of the deposited data

How the results depend on the processing

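No paired analysis was possible because replicates had been merged into 1 list per stage by the authors, and leaving out each replicate was not run for the same reason. Over 78 recalculations with other settings, 36 stayed within the interval of the reported value, or within 1.5 times for a count, and 42 did not. Leaving out any 1 autosome moved none of the results beyond these bounds (intronic share 49.7 to 50.5%, median score 145.32 to 146.86, 902 to 998 genes with at least 3 members).

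Restricting both the list and the members to the higher-scoring 50% of E10.5 regions changed most. It left 2218 members, 119 genes with at least 3 and 0 clusters of at least 4, with an intronic share of 53.1%, a median score of 363.18 and a median GC content of 44.2%. Under it the motif shares became 36.7% for E-box B, 21.5% for E-box A, 9.92% for E-box C, 18.6% for the homeodomain letters, 10.2% for the posterior HOX letters, 10.4% for GATA, 1.67% for the GC-rich SMAD letters and 3.83% for the CTCF core. Requiring under 50 kb gave an intronic share of 52.9%, a median score of 143.45, 567 genes and 21 clusters. Using starts of all gene types gave 11197 members, 44.5% of them intronic, with a median score of 150.14 and a median GC content of 44.5%. Of these members, 53.5% had a nearest gene, of any type, with a promoter open at both stages. Gene bodies of all types gave 51.7% intronic. GC content of the whole region had a median of 43.6%. Linking at 5 kb or 25 kb gave 6 or 133 clusters. Shorter windows hold fewer letters by construction. With 50 bases to either side, the shares of E-box B, E-box A, E-box C, homeodomain, posterior HOX, GATA, GC-rich SMAD and CTCF core letters were 14.2, 9.56, 3.04, 5.68, 3.10, 3.64, 1.17 and 3.68%, and with 250 bases 45.9, 31.5, 13.7, 21.4, 14.1, 22.3, 3.20 and 10.1%. The intronic share stayed above that of shared regions under the reciprocal overlap, 5 kb, 50 kb and higher-scoring settings, by 10.6 to 15.3 percentage points. The cause of the other changes was not tested.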

Other observations

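Ranked by members per 100 kb of territory among genes with at least 5 members, a ranking added after the data had been seen, the order differed from that by number, although Filip1l was high in both. Mepe, a bone and tooth matrix gene, had 6 members in a territory of 63.0 kb (9.53 per 100 kb), with scores of 79.3 to 509.47, no shared and no E9.5-only region, and no open promoter at either stage. B530045E10Rik had 6 members at 183.56 to 1720.02 beside 1 shared region. Next to each other on chromosome 3, 4922501L14Rik and BC007180 had 7 and 6. Mcfd2, which encodes a protein of secretory transport, had 5 members and no other distal region, with a median GC content of 56.1%, above that of the members as a whole. Lix1 had 7 members at 86.96 to 588.13 beside 3 shared regions and no E9.5-only region.

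On the X chromosome, which the rule leaves out, 279 E10.5 regions met every other condition beside 179 that overlapped an E9.5 region, so that 60.9% were E10.5-only (95% Wilson interval 56.4 to 65.3%), above the 32.3 to 52.5% of the autosomes. Of the 279, 122 were intronic (43.7%) and the median score was 146.98. Tmem164 had 9 and the dystrophin gene Dmd had 5. The sex of the embryos is not given in the labels, and its part in the difference was not tested.

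The letters TCATAAA, related to sites of the most posterior HOX proteins, were counted after they had been noticed in 2 of the 8 windows read, those of Odz4 and Pde4d, so the count is not independent of that reading. They were in 9.24% of members (8.67 to 9.84%), 5.26% of all autosomal E10.5 regions, 3.85% of shared regions and 3.66% of E9.5-only regions, and in 5.75% (5.10 to 6.40%) and 5.79% (4.86 to 6.72%) of the latter classes after reweighting to the GC content of the members. E10.5-only regions over 100 kb from a gene held them in 9.70% after reweighting, so the letters were not more frequent in members than in those regions. The share was higher in members than in shared regions on 19 of 19 autosomes, by 5.45 ± 1.47 points before reweighting.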
